A study of Mus musculus with 11 samples.

Results

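Saa3, Lcn2, Slpi and Hp encode secreted proteins of the acute-phase and antimicrobial response, and these 4 genes of the 18193 measured were described across macrophage states. They were picked by name because Saa3 was far higher in M1 macrophages and Lcn2 was low in M2a macrophages alone. Saa3 in M1 and Lcn2 in every comparison are therefore given as descriptions without a test. Each gene was read from the 1 probe set that carries its symbol alone, which are 1450826_a_at for Saa3, 1427747_a_at for Lcn2, 1448377_at for Slpi and 1448881_at for Hp.

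All macrophages came from bone marrow of Rag1-/- C57BL/6 mice, which lack mature T and B cells, aged 7 weeks, and every culture lasted 7 days and ended with a sort for F4/80+ cells. M1 cells were given IFN-g, with LPS for the last 24 h (3 arrays), M2a cells were given IL-4 together with IL-13 (3 arrays), and M0 cells no added cytokine (5 arrays). Total RNA was hybridized to Affymetrix mouse arrays. The titles number the replicates without naming mice or cultures, so p-values measure only the spread among these arrays, and that spread could be technical. The values are log2 probe-set values, so a difference of 1 is a 2-fold change, and a level is not comparable between genes because probe sets differ in binding.

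The acute-phase response is the rise in a set of secreted proteins during infection and injury, driven largely by the cytokines IL-6, IL-1 and TNF through STAT3, NF-kB and C/EBP transcription factors. Serum amyloid A3, the product of Saa3, is the family member that mouse macrophages and adipocytes make outside the liver. Lipocalin 2, from Lcn2, withholds iron from bacteria by binding their siderophores and is stored in the specific granules of neutrophils. Secretory leukocyte protease inhibitor, from Slpi, blocks the neutrophil proteases elastase and cathepsin G. Haptoglobin, from Hp, captures free haemoglobin, which macrophages take up through the receptor CD163.

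All 10 measured macrophage markers, among them Adgre1, the gene of F4/80, Csf1r and Cd68, lay above the array's median gene on all 11 arrays. Their mean log2 level was 11.19 to 11.21 in M1, 9.57 to 9.86 in M2a and 10.14 to 10.79 in M0, the group order that Slpi and Hp had as well. Against M0, 5 of the 10 rose and 1 fell in M1, where 22.1% of all genes rose and 17.6% fell. In M2a, 2 rose and 5 fell, against 18.6% and 13.3% of all genes. The 1 fall in M1 and the 2 rises in M2a were thus near the shares of all genes. With the hybridization covariate 3 rose and 4 fell in M1, and 3 fell there after quantile normalization or with array weights. The 2 rises in M2a were 1 without M0 array 1 or 4, M2a array 1 or 2, or any M1 array. The part of these markers in the results was not tested. Across genes, pairs of arrays correlated at 0.997 to 0.998 within M1, 0.996 to 0.998 within M2a and 0.956 to 0.995 within M0. A typical gene (the median) had an SD of 0.082 in M1, 0.0857 in M2a and 0.244 in M0. For each probe set, arrays 1 to 3 of M0 had the same average as arrays 4 and 5, to within 8.3e-05. The 5 M0 values are therefore not independent, the fit counts them as if they were, and errors and p-values of differences from M0 may be too small. The reason for this tie is not given in the sources used here. Because of it, a difference from M0 is the same against either subset. The hybridization control probe sets, which no cell contributes to, averaged 9.71 ± 0.06 in M1, 9.86 ± 0.09 in M2a and 11.15 ± 0.52 in M0 (SD, n = 3, 3 and 5). For actin, the 5' control probe set minus the 3' one, a sign of RNA quality, was 0.15 ± 0.02 in M1, -0.57 ± 0.06 in M2a and -0.61 ± 0.47 in M0 (SD, same n), so it was highest in M1, as Saa3, Slpi and Hp were. The part of either control in the differences was not tested beyond a fit with it as a covariate. The hybridization controls read 10.61 to 11.70 on the M0 arrays and 9.64 to 9.96 on the M1 and M2a arrays, without overlap. The fit with that covariate therefore extends a trend from within the groups across this gap. It cannot tell the controls apart from the group, whether or not a difference from M0 passes.

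Saa3 stood apart in M1 macrophages. It read 14.41, 14.49 and 14.46 on the M1 arrays, 6.86, 6.84 and 7.10 on the M2a arrays, and 5.95, 6.78, 6.45, 6.31 and 6.47 on the M0 arrays. Every M1 array lay more than 7 log2 units above every other array, while the M2a and M0 arrays lay close together without overlapping. The group means were 14.45 ± 0.04 in M1 (SD, n = 3), 6.93 ± 0.14 in M2a (SD, n = 3) and 6.39 ± 0.30 in M0 (SD, n = 5). The difference was 8.06 between M1 and M0, which ranked 2 from the top among 18193 genes, and 7.52 between M1 and M2a, which ranked 12. The Saa3 value was the highest of all 45101 probe sets on each of the 3 M1 arrays. The files do not show whether the probe set was near the upper limit of the scanner there, and if it was, these differences are too small. With the actin covariate the M1 minus M2a difference of Saa3 was 7.41.

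The M2a minus M0 difference of Saa3 did not itself serve to choose the gene, but the M0 and M2a arrays entered the comparisons with M1 that did. It was 0.54 ± 0.15 (SE), with a 95% interval of 0.20 to 0.88 and a limma adjusted p of 0.020. A choice by a large rise over M0 can favour low M0 values, so this p may be too small. This small rise is a fold of 1.45. The adjusted p comes from one fit over all genes and the threshold is 0.05, which 31.9% of all 18193 genes passed in the same comparison (18.6% of all genes as higher). The call was lost without M2a array 3 (0.46, adjusted p = 0.096). In the fit with the hybridization covariate the difference was -0.05 (adjusted p = 0.84).

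Lcn2 was high in M1 and M0 macrophages and low in M2a macrophages. It read 12.62, 12.65 and 12.68 on the M1 arrays, 4.23, 4.17 and 3.68 on the M2a arrays, and 13.15, 11.73, 12.47, 12.68 and 12.22 on the M0 arrays. The M1 arrays fell inside the range of the M0 arrays, and the M2a arrays lay more than 7 units below all others. The means were 12.65 ± 0.03 in M1 (SD, n = 3), 4.03 ± 0.30 in M2a (SD, n = 3) and 12.45 ± 0.53 in M0 (SD, n = 5). Lcn2 had the fourth-lowest M2a minus M0 difference of all genes, -8.42, and ranked 2 from the top for M1 minus M2a, at 8.62. M1 differed from M0 by 0.20. That last value was 1.46 in the fit with the hybridization covariate and 0.02 to 0.38 when single arrays were left out. The files give no detection calls, so low values such as those of Lcn2 in M2a may be background, in which case a difference against them is a lower limit.

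Slpi was graded across the 3 states, highest in M1 and lowest in M2a. It read 13.02, 13.03 and 12.97 on the M1 arrays, 8.10, 7.73 and 8.02 on the M2a arrays, and 11.49, 10.10, 10.68, 10.96 and 10.55 on the M0 arrays. No array of one state overlapped another state. Slpi rose in M1 by 2.25 ± 0.24 (SE) over M0, with a limma adjusted p of 2.1e-05, a 4.76-fold change. It fell in M2a, with a difference of -2.81 ± 0.24 (SE) from M0 and a limma adjusted p of 6.0e-06. Between the cytokine states, Slpi was 5.06 ± 0.27 (SE) higher in M1 than in M2a (limma adjusted p = 6.2e-08), a 33.3-fold change. In the fit with the hybridization covariate the differences from M0 were 3.46 in M1 and -1.72 in M2a, and both passed in that extrapolated fit.

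Hp followed the same order with a deeper fall in M2a. It read 12.49, 12.45 and 12.47 on the M1 arrays, 6.23, 6.03 and 5.97 on the M2a arrays, and 11.70, 10.21, 10.13, 11.02 and 10.34 on the M0 arrays. The states did not overlap for Hp either, and M0 array 1 came nearest to M1. Hp rose in M1 by 1.79 ± 0.30 (SE) over M0, a 3.46-fold change (limma adjusted p = 0.00063). In M2a it fell 24.4-fold, a difference of -4.61 ± 0.30 (SE) from M0 (limma adjusted p = 6.9e-07). Hp was 6.40 ± 0.34 (SE) higher in M1 than in M2a, an 84.2-fold change (limma adjusted p = 5.4e-08). In the fit with the hybridization covariate the differences of Hp from M0 were 3.41 in M1 and -3.15 in M2a, and both passed in that extrapolated fit.

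Slpi and Hp thus passed in all 3 comparisons, in which 39.7% (M1 against M0), 31.9% (M2a against M0) and 29.4% (M1 against M2a) of all genes passed. Arrays of the compared groups did not overlap for 40.1%, 35.1% and 64.6% of all genes in these comparisons. By size, Slpi ranked 261 and Hp 394 from the top of the M1 minus M0 differences, 156 and 34 from the bottom of the M2a minus M0 differences, and 59 and 23 from the top of the M1 minus M2a differences. The median over all genes was 0.06, 0.07 and -0.02 in these comparisons. The comparisons with M0 share the M0 arrays.

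**Figure D1:**
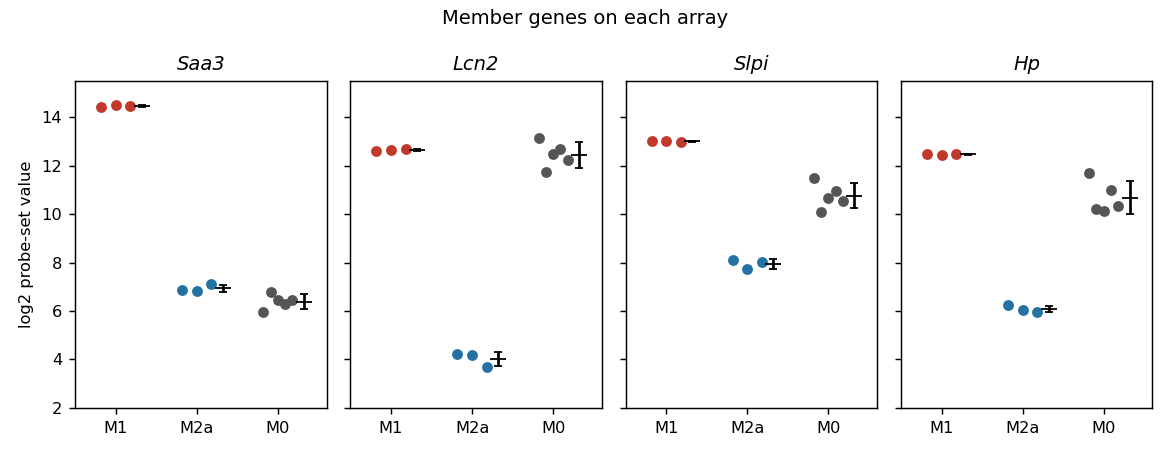
Log2 probe-set value (vertical axis) of Saa3, Lcn2, Slpi and Hp on each array, with M1 on the left of each panel, M2a in the middle and M0 on the right. Points are arrays and bars are mean ± SD; Saa3 is above 14 only in M1, Lcn2 is below 5 only in M2a, and Slpi and Hp run from M1 at the top through M0 to M2a.

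**Figure D2:**
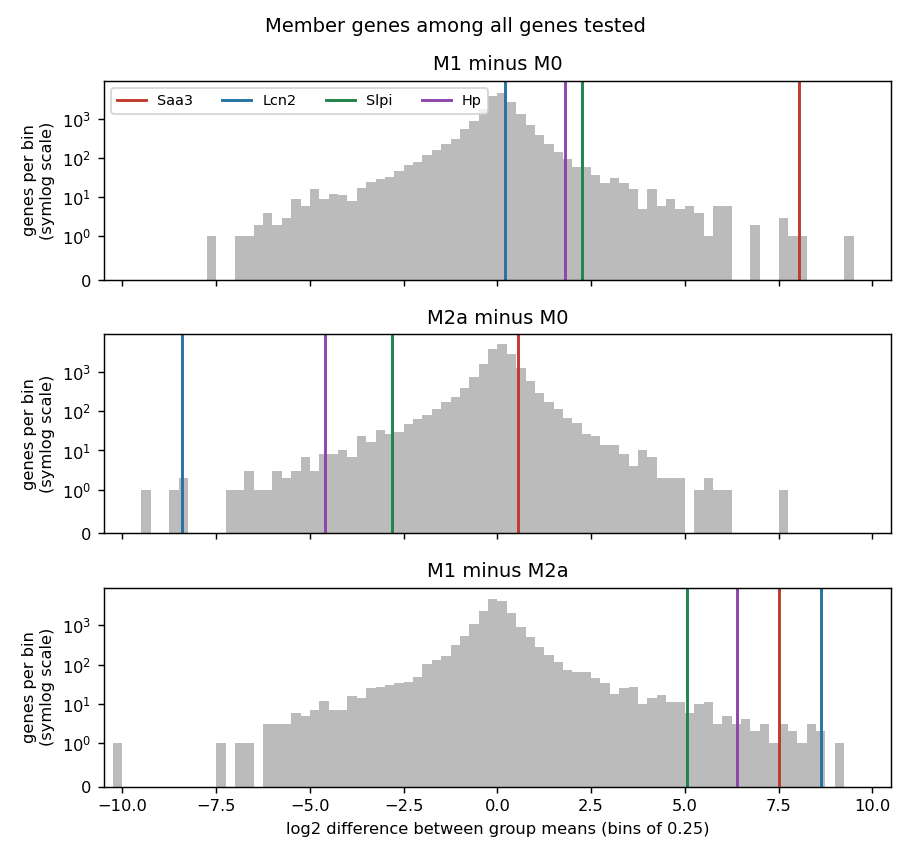
Distribution of the log2 differences of 18193 genes in each comparison (grey bars in bins of 0.25, counts on a symmetric log scale) with the 4 genes as coloured lines. Saa3 lies at 8.06 in M1 minus M0, Lcn2 at -8.42 in M2a minus M0, and all 4 genes lie between 5.06 and 8.62 in M1 minus M2a.

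The promoter windows are shown because Lcn2, Slpi and Hp were all lower in M2a while Saa3 was not, and because C/EBP factors are known regulators of acute-phase genes. RefSeq windows of 250 bases before to 50 after the start of transcription (build GRCm38.p6) were matched for 3 of the 4 genes, all on the minus strand. They lie at chr7:46715627-46715926 for Saa3, at chr2:32387690-32387989 for Lcn2 and at chr2:164356458-164356757 for Slpi, and capitals mark each match to the C/EBP motif TTNNGNAA on either strand.
Saa3: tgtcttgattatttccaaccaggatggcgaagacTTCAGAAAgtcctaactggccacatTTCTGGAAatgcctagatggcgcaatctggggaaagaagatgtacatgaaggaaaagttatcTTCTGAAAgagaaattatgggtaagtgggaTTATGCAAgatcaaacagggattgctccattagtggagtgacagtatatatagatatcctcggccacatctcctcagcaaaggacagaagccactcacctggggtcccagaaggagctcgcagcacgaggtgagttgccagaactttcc
Lcn2: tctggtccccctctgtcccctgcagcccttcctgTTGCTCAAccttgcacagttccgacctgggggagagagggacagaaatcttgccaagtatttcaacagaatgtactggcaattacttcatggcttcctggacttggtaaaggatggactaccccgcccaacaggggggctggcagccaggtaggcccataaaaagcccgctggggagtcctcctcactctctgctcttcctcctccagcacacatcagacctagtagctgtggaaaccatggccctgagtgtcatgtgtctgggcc
Slpi: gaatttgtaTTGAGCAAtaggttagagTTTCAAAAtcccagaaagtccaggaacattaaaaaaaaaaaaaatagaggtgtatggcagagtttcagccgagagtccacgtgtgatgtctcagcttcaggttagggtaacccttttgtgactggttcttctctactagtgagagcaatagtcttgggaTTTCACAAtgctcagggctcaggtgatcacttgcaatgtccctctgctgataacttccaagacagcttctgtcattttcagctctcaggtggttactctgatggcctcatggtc
The Saa3 window held 4 matches, the last at -99 to -92 from the start (TTATGCAA), the Slpi window held 3 and the Lcn2 window held 1. The motif is frequent, since 40.7% of 32851 windows of the same length held at least 1 match, 3.6% at least 3 and 0.852% at least 4. A match to the STAT6 motif, TTC and GAA with 4 bases of any kind between them, present in 6.95% of windows, was found in Lcn2 at -156 to -147 and in neither other window. The NF-kB consensus (8.46% of windows) and the interferon-gamma activated site TTCNNNGAA (8.3%) had no match in these 3 windows. These are matches of letters in a short window and do not show binding.

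Over the 11 arrays, Slpi and Hp had a Pearson correlation of 0.97 (Spearman 0.94), Lcn2 and Hp of 0.96 (0.81), and Lcn2 and Slpi of 0.88 (0.83). Saa3 had a Pearson correlation of 0.72 (Spearman 0.25) with Slpi, of 0.57 (0.24) with Hp and of 0.33 (-0.23) with Lcn2. These values describe 3 group levels and the M0 spread, so the arrays are not 11 independent points. Within M0, Lcn2, Slpi and Hp were each highest on array 1 and second highest on array 4, where Saa3 was lowest and second lowest. Lcn2 and Slpi were lowest on array 2, where Saa3 was highest, and Hp was lowest on array 3. On M0 array 1, the deviation from the M0 mean was 1.02 for Hp, 0.74 for Slpi, 0.70 for Lcn2 and -0.44 for Saa3.

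Neutrophil precursors also make lipocalin 2 and haptoglobin, and markers of that lineage moved in the same M0 arrays. The mean log2 level of the 15 measured neutrophil-lineage markers was 6.41 to 6.58 in M1, 6.04 to 6.09 in M2a and 10.44 to 11.66 in M0. It was highest on M0 array 1 (11.66), followed by array 4 (10.94), and 13 of the 15 genes were highest on array 1. The hybridization controls, which no cell contributes to, were also highest on M0 arrays 1 and 4, at 11.70 and 11.69. They were 10.61 to 10.98 on the other M0 arrays. The macrophage marker mean was lowest on those 2 arrays, at 10.16 and 10.14, against 10.61 to 10.79. Which of these goes with the spread of Lcn2, Slpi and Hp within M0 was not tested. All 15 markers fell in M1 against M0, where 17.6% of all genes fell (median -4.99). In M2a, 14 of 15 fell, where 13.3% of all genes did (median -5.05), and the other, Chil3, which macrophages express under IL-4, rose by 0.67, a call lost without M2a array 1, 2 or 3 (adjusted p = 0.065, 0.064 and 0.052). Between 6 and 7 of the 15 markers lay below the median gene on the M1 arrays, 9 to 11 on the M2a arrays and 0 on the M0 arrays. Directly compared, 3 were higher in M1 than in M2a (S100a8, S100a9 and Ngp) and 2 lower (Chil3 and Cxcr2). Over all genes 13.7% were higher and 15.6% lower. Under the alternatives these counts ran from 2 to 7 and from 2 to 5.

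The specific granule genes whose proteins are stored with lipocalin 2 did not share its M1 level. Ltf, which encodes lactoferrin, read 5.81, 5.92 and 5.95 on the M1 arrays, 6.23, 5.82 and 5.90 on the M2a arrays, and 11.72 to 13.31 on the M0 arrays. Camp, which encodes the antimicrobial cathelicidin, averaged 6.40 in M1, 5.70 in M2a and 11.79 in M0. Ngp, a neutrophil granule protein, averaged 7.84 in M1, 5.13 in M2a and 13.57 in M0. Ltf, Camp and Ngp were thus far below M0 in both cytokine states, while Lcn2 in M1 lay inside its M0 range and Slpi and Hp in M1 lay above theirs. Other markers of the neutrophil-lineage list were unlike these. S100a8 read 12.28 to 12.42 in M1 and 7.11 to 7.53 in M2a, and S100a9 read 8.97 to 9.35 and 4.31 to 5.48. Chil3 went the other way, at 7.46 to 7.98 in M1 and 13.49 to 13.57 in M2a. The part of neutrophil-lineage RNA in the M0 levels of Lcn2, Slpi and Hp, after a sort that selects F4/80+ cells, was not tested, and in bulk RNA fewer cells of a type and less RNA per cell cannot be told apart.

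**Figure D3:**
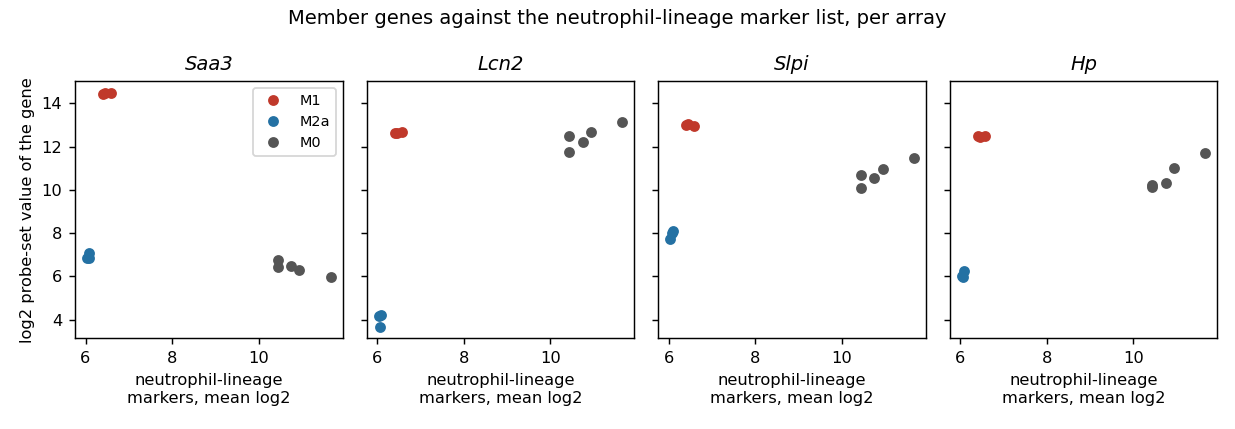
Log2 value of each of the 4 genes (vertical axis) against the mean log2 level of 15 neutrophil-lineage markers (horizontal axis), 1 point per array, M1 in red, M2a in blue and M0 in grey. The mean marker level was 6.41 to 6.58 in M1, 6.04 to 6.09 in M2a and 10.44 to 11.66 in M0, and all 4 genes were higher in M1 than in M2a. The mean hides single markers that differ between M1 and M2a, S100a8, S100a9 and Ngp being higher in M1 and Chil3 and Cxcr2 lower.

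Marker lists of other cell types were also measured. The mean log2 level of 8 hepatocyte markers, the usual source of acute-phase proteins in plasma, was 4.98 to 5.18 in M1, 5.01 to 5.08 in M2a and 4.69 to 5.04 in M0, with at least 7 of the 8 below the median gene on every array. That of 10 stromal and adipocyte markers was 4.77 to 4.87 in M1, 3.95 to 4.08 in M2a and 4.81 to 5.55 in M0, lowest in M2a as Lcn2, Slpi and Hp were, with 8 of the 10 below the median gene in M1, 10 in M2a and 7 to 8 in M0. That of 9 eosinophil, basophil and mast cell markers was 4.15 to 4.24 in M1, 4.48 to 4.60 in M2a and 7.00 to 8.97 in M0. The part of stromal, adipocyte, eosinophil, basophil and mast cell RNA in the results was not tested. The 7 dendritic cell and lymphoid markers averaged 5.06 to 5.28 over all arrays.

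The other acute-phase plasma proteins moved in part with Saa3. Of 23 measured, 9 rose and 2 fell in M1 against M0 (22.1% of all genes rose and 17.6% fell), with a median difference of 0.18. The count of 2 was 1 when any single array other than M0 array 2 or 5 was left out, and 0 with the hybridization covariate. In M2a, 4 rose and 3 fell (median 0.10), shares near those of all genes (18.6% and 13.3%). Between the cytokine states 8 were higher and 1 lower in M1, where 13.7% of all genes were higher and 15.6% lower. The count of 1 was 6 with array weights and 3 with only these groups fitted or with M0 arrays 2, 3 and 5 only. Among genes above the median gene, the rises numbered 3 in M1 and 1 in M2a, and 5 were higher in M1 than in M2a, from fewer genes tested. The M2a count of 4 was 7 with array weights or the hybridization covariate and 8 with M0 arrays 2, 3 and 5 only.

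Within the serum amyloid A family, Saa1, a liver acute-phase protein, rose in M1 by 4.92 ± 0.09 (SE; limma adjusted p = 9.6e-12), at 7.71 in M1, 3.19 in M2a and 2.80 in M0. Saa2, its close paralog, rose by 0.84 ± 0.15 (limma adjusted p = 0.0012), and Saa4, the constitutive member, differed by -0.12 ± 0.13 (adjusted p = 0.47). Saa1 and Saa2 are near-identical in sequence, so their probe sets may share signal. In M2a, Saa1 rose by 0.39, while Saa2 differed by 0.03 and Saa4 by 0.10. The Saa1 means in M2a and M0 lie below the lowest array median of 5.14, so this rise may be background. The M2a call of Saa1 was lost without probe sets ending in _x_at or _s_at (0.26) and with the hybridization covariate (0.34). With that covariate Saa4 rose in M1 (0.51) and in M2a (0.66).

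Among the remaining acute-phase genes, Cfb, complement factor B, had the highest rise in M1, 7.93 ± 0.13 (SE; limma adjusted p = 4.7e-12). Cp, the copper-carrying ferroxidase ceruloplasmin, rose in M1 by 4.94, Ptx3, a pattern-recognition pentraxin, by 3.03, the metallothionein gene Mt2 by 2.68, and Orm1 and Orm2, which encode orosomucoids of the lipocalin fold, by 1.48 and 0.59. Lbp, which delivers LPS to CD14, fell with a difference of -1.48. Mt1, Hpx, which encodes the haem binder hemopexin, and Orm3 did not pass in M1, at -0.09, -0.39 and 0.06. In M2a, Mt2 rose by 1.63 and Orm2 by 0.40, Lbp (-2.35), Ptx3 (-1.43) and Mt1 (-0.84) fell, and Cfb (0.16), Cp (0.13), Orm1 (-0.81), Orm3 (0.06) and Hpx (-0.05) did not pass. Orm2 averaged only 3.23 in M1, 3.04 in M2a and 2.64 in M0, below the lowest array median of 5.14, so its values may be background. The M2a calls of Ptx3 (without M0 array 3, or M2a array 1 or 3) and Orm2 (without M0 array 2, 3 or 5, M2a array 2 or 3, or any M1 array) were lost with single arrays left out, at adjusted p up to 0.15 and 0.23, Orm1 passed in M2a without M0 array 2 or 4 (-0.98 and -0.89) and Hpx in M1 without M0 array 5 (-0.51). With the hybridization covariate the calls of Ptx3 (0.90) and Lbp (-0.48) in M1 and of Mt2 (0.53) in M2a were lost, and Hpx was 0.68 higher in M2a. With the actin covariate the M1 call of Orm1 was lost (1.14, adjusted p = 0.056).

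The list of secreted antimicrobial and whey acidic protein (WAP) genes, Slpi being a WAP protein, went lower. Of 22 measured, 11 fell and 2 rose in M1 (median -0.60), and 14 fell and 1 rose in M2a (median -0.97), where 17.6% and 13.3% of all genes fell. Camp, Ltf, Ngp, S100a8 and S100a9 are also in the neutrophil-lineage list. Wfdc17, a WAP protein of activated macrophages, had an order like that of Slpi, at 12.72 in M1, 7.44 in M2a and 11.81 in M0, with a rise of 0.91 ± 0.20 (SE; limma adjusted p = 0.0041) in M1 and a difference of -4.37 ± 0.20 (limma adjusted p = 4.1e-08) in M2a. With the hybridization covariate the M1 difference of Wfdc17 was -0.17, and with the actin 5' minus 3' covariate it did not pass. Wfdc21, another WAP gene, fell in both states, with differences of -3.23 and -4.51.

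S100a8 and S100a9, the subunits of calprotectin, which binds zinc and manganese, fell less in M1 (-1.48 and -4.99) than in M2a (-6.58 and -9.37), and the direct M1 minus M2a difference was 5.10 ± 0.14 (SE; limma adjusted p = 2.9e-10) for S100a8 and 4.38 ± 0.26 (limma adjusted p = 1.4e-07) for S100a9. Camp (-5.39 in M1 and -6.09 in M2a), Ltf (-6.53 and -6.44) and Ngp (-5.73 and -8.44) fell in both states. So did Pglyrp1, a peptidoglycan-binding protein (-3.49 and -3.27). The lysozyme genes Lyz1 and Lyz2 differed by -0.03 and 0.00 in M1 without passing and fell in M2a (-0.54 and -0.80). Between the cytokine states 10 of the 22 genes were higher in M1 and 1 was lower, against 13.7% and 15.6% of all genes. The 1 lower gene was a count that was 0 without M1 array 3 or M2a array 1. The count of 2 rises in M1 was 1 without M1 array 3 and 5 after quantile normalization. The count of 1 rise in M2a was 2 without M0 array 4, 0 without M2a array 2 and 3 with the hybridization covariate.

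**Figure D4:**
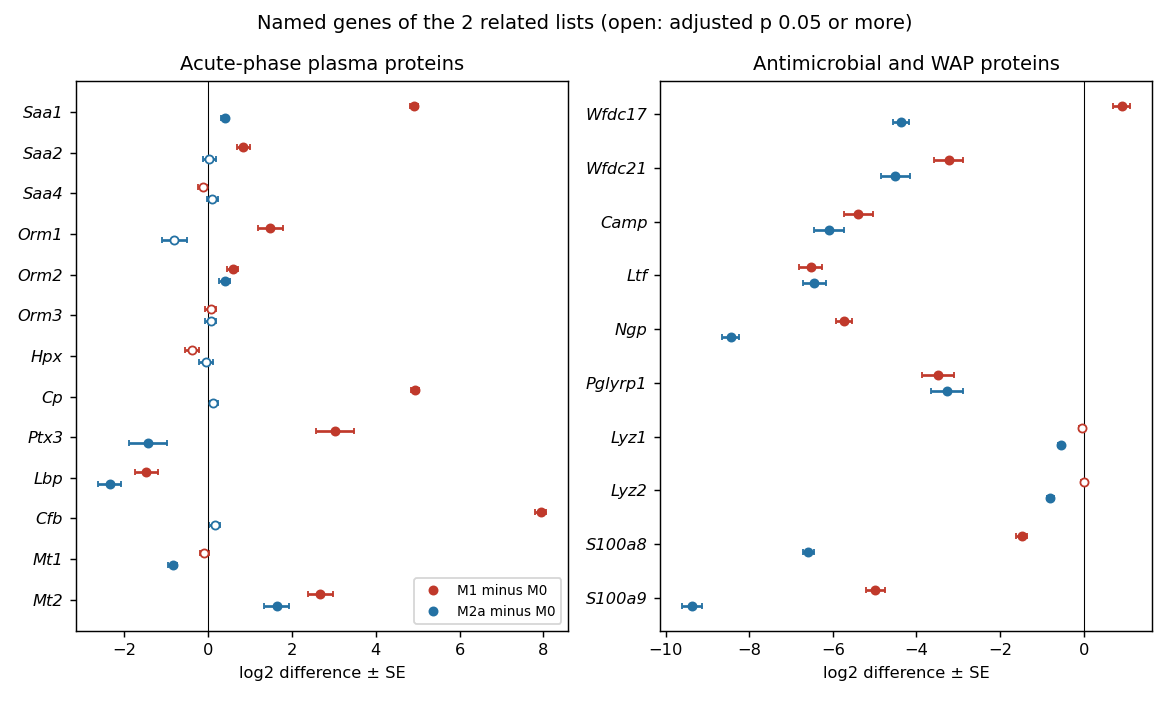
Log2 difference from M0 (horizontal axis, with SE bars) of named acute-phase genes (left) and of named antimicrobial and WAP genes (right), M1 in red above M2a in blue. Filled points passed an adjusted p of 0.05; Cfb, Cp and Saa1 lie furthest right in M1, and S100a9 and Ngp furthest left in M2a.

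Of 19 receptors and partners of the 4 proteins, 5 rose and 9 fell in M1 (median -0.22), and 2 rose and 6 fell in M2a (median -0.07). Over all genes 22.1% rose and 17.6% fell in M1, and 18.6% rose and 13.3% fell in M2a, so the 5 rises were near that share and the 2 rises below it. The rises in M1 numbered 3 with the hybridization or the actin covariate or with M0 arrays 4 and 5 only, and the falls in M2a numbered 10 with the hybridization covariate. Fpr2, a formyl peptide receptor that binds serum amyloid A, rose in M1 by 2.18 ± 0.18 (SE; limma adjusted p = 2.7e-06) and fell in M2a, with a difference of -5.66 ± 0.18 (limma adjusted p = 3.0e-09). Tlr2, which also senses serum amyloid A, rose by 1.38 in M1 and had a difference of -3.63 in M2a. Tlr4, the LPS receptor, differed by 1.07 ± 0.45 in M1 and 0.89 ± 0.45 in M2a without passing. The scavenger receptors Cd36 and Scarb1, which bind serum amyloid A, went opposite ways, Cd36 up by 1.32 in M1 and 1.05 in M2a, and Scarb1 lower at -1.21 and -1.16. P2rx7 rose by 1.09 and Ager fell by 0.52 in M1, and neither passed in M2a (0.71 and -0.06).

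For the partners of Hp, Cd163, the haptoglobin-haemoglobin receptor, fell in both states (-1.44 in M1 and -1.32 in M2a), at 3.40 in M1, 3.52 in M2a and 4.84 in M0. These means lie below the lowest array median of 5.14, so they may be background. Hmox1, which degrades the haem that enters by that route, rose by 3.53 in M1 and differed by 0.17 in M2a. Lrp1, the receptor for haem bound to hemopexin, fell by 1.03 in M1 and differed by 0.44 in M2a. Of the 2 receptor genes for lipocalin 2, Lrp2 fell in M1 (-0.93) and did not pass in M2a (-0.12), and Slc22a17 did not pass in either state (-0.17 and -0.07). Lrp2 averaged 3.92 in M1 and 4.85 in M0, also below that median. Mmp9, whose protein binds lipocalin 2, fell by 2.59 in M1 and differed by -0.61 in M2a.

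For Slpi, the target protease genes Elane (-3.43 in M1 and -3.17 in M2a) and Ctsg (-5.72 and -5.05) fell in both states, and both are in the neutrophil-lineage list. Anxa2, a surface binding partner of the Slpi protein, fell by 2.06 in M1 and rose by 1.44 in M2a. Grn, progranulin, which Slpi protects from elastase, differed by -0.01 and 0.28. The scramblases Plscr1 (0.34 and -0.32) and Plscr4 (-0.22 and 0.14), which bind the Slpi protein, did not pass against M0. Refits given below differed for Grn, Plscr1 and Plscr4.

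Some of these calls rested on single arrays. The M2a call of Cd36 was lost without M0 array 1 or 2, any M1 array or any M2a array (adjusted p up to 0.11), and the count of 2 rises in M2a was then 1, while it was 4 without M0 array 5. The M1 calls were lost for P2rx7 without any 1 of the M1 arrays, for Lrp2 without M1 array 1 or 2, and for Ager without M0 array 1 or 3, M2a array 1 or 2, or any M1 array. Without M0 array 5, Tlr4 passed in M1 (1.36) and M2a (1.18), P2rx7 in M2a (0.93), Plscr1 in M1 (0.47) and Mmp9 in M2a (-0.67). Mmp9 also passed in M2a without M0 array 2 or M2a array 3, and Plscr1 without M0 array 4. With the hybridization covariate Lrp2, Tlr4, Cd36, Ager and P2rx7 changed sign in both comparisons against M0, Hmox1 changed sign in M2a, and the calls of Tlr2 in M1 and of Elane in both states were lost. The M1 call of Lrp1 was lost with the mean of probe sets (-0.22, adjusted p = 0.42) and with the actin covariate (-0.74, adjusted p = 0.11). The mean of probe sets also ended the M1 calls of Lrp2 (-0.29) and Ager (-0.27), and the actin covariate those of Cd36 (0.17) and P2rx7 (0.05). Without probe sets ending in _x_at or _s_at, Scarb1 differed by 0.01 in M1 and -0.25 in M2a, and neither passed. Grn passed in M2a in that fit (0.56) and with the mean of probe sets (0.39). With that mean Plscr4 fell in M1 (-0.996, limma adjusted p = 3.2e-04). With array weights Plscr4 (-0.295) and Plscr1 (0.394) passed in M1, and Plscr1 in M2a (-0.285).

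Upstream of the 4 genes, the 27 measured cytokines, receptors and transcription factors split by state, with 14 higher and 6 lower in M1 (median 0.43) and 2 higher and 11 lower in M2a (median -0.31). Between the cytokine states 15 were higher and 2 lower in M1 (median 0.91), and the lower ones numbered 5 with array weights or with only these groups fitted. The shares over all genes were 22.1% higher and 17.6% lower in M1 against M0, 18.6% and 13.3% in M2a against M0, and 13.7% and 15.6% in M1 against M2a. The inducing cytokine genes Il1b, Il1a, Il6 and Tnf rose in M1 by 4.15, 3.42, 3.31 and 2.64. In M2a, Il1b (-1.76) and Il6 (-1.18) fell, and Il1a (-0.31) and Tnf (-0.08) did not pass, although Il1a passed without M0 array 1 (-0.43). Il6 averaged 4.00 in M0, below the lowest array median of 5.14, so its fall in M2a may lie within background. Osm, an IL-6 family cytokine, fell in both states (-0.92 and -0.74).

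The transcription factor Cebpb rose by 1.06 ± 0.08 (SE; limma adjusted p = 1.7e-06) in M1 and differed by 0.15 in M2a, while Cebpd fell in both states (-2.02 in M1 and -1.81 in M2a). Nfkbiz, the nuclear IkB protein that Lcn2 induction requires in mouse cells, read 7.94 on average in M1, 5.30 in M2a and 8.13 in M0. Its M1 difference of -0.19 ± 0.16 did not pass, while in M2a it was -2.83 ± 0.16 (limma adjusted p = 2.6e-07). Its lowest group was M2a, as for Lcn2, but its highest was M0. With the mean of its probe sets Nfkbiz was 0.80 higher in M1 and passed (limma adjusted p = 4.9e-04). The part of Nfkbiz in the Lcn2 levels was not tested. Socs3, a feedback inhibitor of IL-6 signalling, rose by 5.10 in M1 and fell by 1.20 in M2a, and Stat3 rose by 0.62 in M1 and differed by -0.37 in M2a. Cebpa fell by 0.94 in M1 and differed by 0.30 in M2a. The M1 call of Stat3 was lost after quantile normalization (0.41, adjusted p = 0.12). In M2a, Stat3 passed without M0 array 5 (-0.45) and under other settings, among them the mean of probe sets (-0.51), array weights (-0.33) and the actin covariate (-0.35). Cebpa passed in M2a without M0 array 3 (0.35), with array weights (0.24) and with the actin covariate (0.31).

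Of the receptors, Il6ra fell in both states (-2.73 in M1 and -2.66 in M2a). Il6st, the shared signalling chain gp130, differed by -0.60 ± 0.24 in M1 without passing and rose by 2.02 in M2a. The M1 difference did not pass in 15 of 25 alternatives and passed in the rest. Those were, among others, the fits without M0 array 1 or 4 (-0.73 and -0.74) and after quantile normalization (-0.69). It also passed with array weights (-0.82) and with the actin (-1.28) or hybridization covariate (-2.03). Il17ra, the receptor of the IL-17 signal that induces Lcn2 in many cells, fell in both (-0.83 in M1 and -2.14 in M2a). With the hybridization covariate the calls of Il17ra in M1 and of Il6 and Socs3 in M2a were lost. In the wider lipocalin and fatty acid binding family of 9 measured genes, the retinol carrier Rbp4 rose by 2.88 in M2a, at 4.05 in M1, 6.91 in M2a and 4.03 in M0, an order unlike that of Lcn2.

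**Figure D5:**
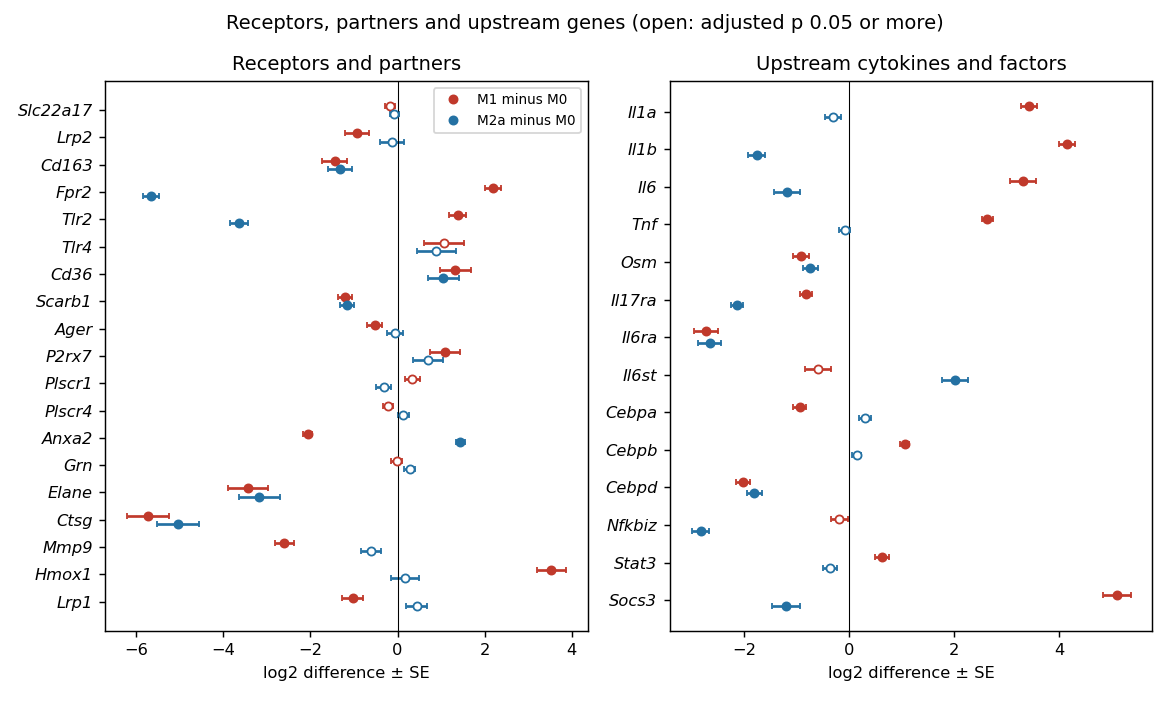
Log2 difference from M0 (horizontal axis, with SE bars) of the receptors and partners (left) and of the named upstream cytokines, receptors and factors (right), M1 in red above M2a in blue. Filled points passed an adjusted p of 0.05; Fpr2, Tlr2, Il1b, Il6 and Socs3 lie right of 0 in M1 and left of 0 in M2a.

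The genes with the most similar profiles were sought by Pearson correlation over the 11 arrays among 2161 genes whose highest and lowest arrays differ by at least 2. For Saa3 these were Rasgrp1 (0.999), Saa1 (0.998), Cp (0.997), Lysmd2 (0.997) and Ptges (0.997). For Lcn2 they were Lst1 (0.994), Gsr (0.994), Limd2 (0.992), Hcar2 (0.989) and Rabgap1l (0.988). For Slpi they were 1600014C10Rik (0.986), Ikbke (0.983), Pilrb1 (0.979), Ms4a6c (0.977) and Ccdc88b (0.977). For Hp they were Cd300lf (0.992), Fpr2 (0.991), Pilrb1 (0.989), Plbd1 (0.988) and Trpm2 (0.987). Saa1 and Cp beside Saa3 are acute-phase genes whose rises in M1 are given above, while Rasgrp1, Lysmd2 and Ptges were not in the acute-phase list. Pilrb1 was shared by Slpi and Hp. Saa3 was picked for its rise in M1, so genes high only in M1 come first for it by construction. The arrays hold 3 group levels and are not 11 independent points. In 13 refits with other normalizations or with 1 array left out, 2 to 5 of the 5 genes of Saa3, Lcn2 and Slpi and 3 to 5 of those of Hp were kept.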

How the data were processed

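Each of 11 Affymetrix arrays had 45101 probe sets, deposited as log2 values. The submitters' processing notes name Partek, with no version. How background was corrected and how probes were summarised and normalized by the authors is not given in the sources used here. Deposited values ran from 0.73 to 14.49, with array medians of 5.14 to 5.34. The number of arrays limits the precision.

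The platform annotation covered 35890 probe sets, of which 34945 had 1 symbol (34741 updated by Entrez identifier) and 932 with several were left out. For each of 18193 genes the probe set of highest average across the 11 arrays was used. No filter on low values was used.

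Groups came from the sample titles. Differences were tested with limma 3.58.1 in R 4.3.3 (lmFit, eBayes, 11 arrays in one fit, 8 residual degrees of freedom), with Benjamini-Hochberg adjustment over all genes and a threshold of 0.05, and the code was tested on simulated data. Errors of differences are standard errors of that fit. The members, lists and rule for named genes were chosen with earlier results of these data known. The rule took the 4 genes, all listed receptors and partners, up to 3 rises and 3 falls of each other list, a fixed set of related genes and the 5 genes most like each member.

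Promoter sequences are from RefSeq (GRCm38.p6). Alternatives covered normalization, probe-set choice, a filter on low values, eBayes settings, array subsets and weights, the replicate number as a block, control-probe covariates and each array left out.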

Additional observations from a re-analysis of the deposited data

How the results depend on the processing

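Each result was refitted under 25 alternatives, of which 1 (M0 arrays 2, 3 and 5 only) was chosen after seeing the data. Of 175 refits of the 7 tested results of Saa3, Slpi and Hp, 173 kept direction and call. The 2 others concern Saa3 in M2a against M0, which was -0.054 with the hybridization covariate and 0.456 without M2a array 3 (leave-one-out range 0.428 to 0.635). The count of 173 overstates how robust the directions are, because several alternatives could not move these differences. Each gene has 1 probe set, which every probe-set choice kept. The eBayes settings, the low-value filter, fitting only the groups compared and either tied M0 subset alone also left the differences unchanged. There only the adjusted p could change. The hybridization covariate differs mainly between M0 and the other groups, without overlap, so differences from M0 with it are extrapolated. With it Saa3 was 7.398 in M1 minus M0, and Lcn2 was 1.456 in M1 minus M0 and -7.295 in M2a minus M0. Saa3 in M1 minus M2a was 7.393 after quantile normalization and 7.409 with the actin covariate, with which Lcn2 in M1 minus M2a was 8.919. The causes were not tested.

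With 1 array left out, 5391 to 8457 genes passed in M1 minus M0, 4161 to 6829 in M2a minus M0 and 3927 to 6192 in M1 minus M2a, against 7217, 5804 and 5341 with all arrays. Leave-one-out ranges of the described values were 7.947 to 8.155 for Saa3 in M1 minus M0, 7.475 to 7.602 for Saa3 in M1 minus M2a, -8.601 to -8.247 for Lcn2 in M2a minus M0 and 8.45 to 8.725 for Lcn2 in M1 minus M2a. In M1 minus M0, 4625 genes passed among genes above the median gene and 4758 with M0 arrays 4 and 5 only; in M2a minus M0, 3801 with M0 arrays 4 and 5 only and 9008 with the hybridization covariate. In M1 minus M2a, 10357 passed when only these groups were fitted, 11342 with array weights, 8442 with the hybridization covariate and 8653 with M0 arrays 2, 3 and 5 only. The wider spread of the M0 arrays enters the shared error; beyond that the cause was not tested.

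With the replicate number as a block, 8023, 6492 and 6963 genes passed in M1 minus M0, M2a minus M0 and M1 minus M2a, and the tested results of Saa3, Slpi and Hp kept their calls (for Saa3 in M2a, adjusted p = 0.034). Same-numbered arrays of different groups had deviations correlated at -0.04 to 0.25, and other-numbered arrays at -0.34 to 0.34. With so few arrays, and with the tie within M0, these values neither show nor exclude a pairing by number.

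Of 4602 refits of the 62 other named genes, 4324 kept their side of the threshold. Here too the eBayes settings, the low-value filter, fitting only the groups compared and the tied M0 subsets could not move a difference. The sign changed in 117, of which 94 did not pass before or after and 23 passed in at least one of the fits. Of those 23, values with the hybridization covariate in M1 minus M0 were 0.507 for Saa4, -0.171 for Wfdc17, 0.695 for Lrp2, -1.718 for Tlr4, -0.719 for Cd36, 0.384 for Ager, -1.031 for P2rx7 and -0.637 for Cd68. In M2a minus M0 they were 0.683 for Hpx, 1.332 for Lrp2, -1.612 for Tlr4, -0.783 for Cd36, 0.754 for Ager, -1.19 for P2rx7, -1.231 for Hmox1, -0.324 for Adgre1 and -0.506 for Cd68. With the actin covariate Lrp2 was 0.009 and Ager 0.043 in M1 minus M0, and Cd36 was -0.821 in M1 minus M2a. The mean of probe sets gave 0.796 for Nfkbiz in M1 minus M0, and leaving out _x_at and _s_at probe sets gave 0.010 for Scarb1 in M1 minus M0 and 0.487 for Ager in M2a minus M0.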
